A study of Rattus norvegicus with 9 samples.

Results

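Hemoglobin production was followed in rat bone through 9 genes, chosen by their symbols in the deposited gene table, which lists 23026 genes. The members were 3 adult globins, Hba-a1 (gene ID 25632), Hba-a2 (360504) and Hbb (24440); 5 enzymes of heme synthesis, Alas2 (25748), Alad (25374), Urod (29421), Cpox (304024) and Fech (361338); and the mitochondrial iron importer Slc25a37 (306000). After the filter on low counts, which 16874 genes passed, all 9 remained. The tissue was bone of female Sprague-Dawley rats, bought at 8 weeks of age, with 3 RNA-seq libraries in each of 3 groups. In the Sham group only fat beside the ovary was taken out, and in the OVX group the ovaries were removed, a model of bone loss after menopause. Rats of the OVX-AS-IV-High group, called the treated group, were ovariectomized and, from 6 weeks after surgery, were given astragaloside IV (AS-IV, a saponin of Astragalus root) by gavage at 80 mg/kg for 8 weeks. The vehicle was sodium carboxymethyl cellulose, which the labels list at 1% for OVX and at 1%, 2% and 3% for Sham replicates 1, 2 and 3; the study's methods give 1% for both groups, which of these is right is not stated, and Sham was kept as 1 group.

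Hemoglobin is built in maturing red cells of the bone marrow from alpha and beta globin chains, each of which holds a heme. Heme synthesis begins and ends in the mitochondrion: ALAS2, the form of the first enzyme made in red cell precursors, condenses glycine with succinyl-CoA, ALAD, UROD and CPOX act on the intermediates, and FECH inserts iron that SLC25A37 (mitoferrin) brings into the organelle. Globin messages are among the most abundant in marrow, so bone that still holds marrow carries them.

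Library totals ran from 34874880 to 35813432 counts in Sham (median 35725783), from 36260132 to 36840026 in OVX (median 36798504) and from 36340063 to 37298250 in the treated group (median 37178255). Values of 1 gene across libraries are given as CPM, counts scaled to library size with TMM factors, and levels of different genes are compared as deposited FPKM, fragments scaled to gene length and library size. In edgeR's quasi-likelihood test, a gene passed the thresholds when its log2 fold change (log2FC) was over 1 in size with an unadjusted p under 0.05, and adjusted p-values are Benjamini-Hochberg values over all genes tested. Shares of all genes beside counts are those of the 16874 genes tested with all 9 libraries, unless another fit is named. No share at an unadjusted p under 0.05 is given for DESeq2, limma, fits without 1 library or fits with the replicate number as a block. The study describes its 3 replicates of a group as independent, while nothing in the labels says whether a library came from 1 rat or from several, and the p-values measure the spread between these libraries. In bulk bone, fewer red cell precursors and less message per precursor cannot be told apart. Defining red cell genes were present in every library: Slc4a1, the anion exchanger of the red cell membrane, averaged 406 FPKM, the factor Klf1 127 and the factor Gata1 56.0.

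The 3 globins were the 3 genes with the highest mean FPKM of the table. Hba-a1 averaged 59372 FPKM over the 9 libraries, Hba-a2 18827 and Hbb 14094. Hba-a1 exceeded Hba-a2 in every library without overlap of their ranges, whereas the ranges of Hba-a2 and Hbb overlapped and Hba-a2 was the higher in 8 of 9 libraries. Of the other members, Alas2 came next at 577 FPKM (rank 129 of all genes), below the lowest Hbb library and above the highest Urod library. Urod averaged 200.3 FPKM, Slc25a37 165, Cpox 161, Fech 130.1 and Alad 108. The ranges of each neighbouring pair in this last group overlapped, and Slc25a37 was above Cpox in only 5 of 9 libraries.

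Other globin genes of the table bear on how the globin values can be read, since near-identical copies share reads and the division of reads between them is uncertain. Hbb-b1 averaged 4081 FPKM, Hbb-bs 1630, Hba-a3 924 and Hbb-b2 198. Of the embryonic globins, Hbe2 had 0 to 1 counts per library, Hbz 0 to 3 and Hbg1 0 to 7, at or near the limit of detection, whereas Hbe1, at 9 to 68, passed the filter. Hba-a1 took a mean of 76.3% ± 3.01 of the summed Hba-a1 and Hba-a2 counts in Sham, 76.9% ± 1.72 in OVX and 75.4% ± 1.30 in the treated group (SD, n = 3), with overlap between all groups.

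Along the pathway, the enzymes differed in level. Alas1, the form of the first enzyme found in all tissues, averaged 45.7 FPKM, so the erythroid form Alas2 was the more abundant message. Uros, which closes the ring, averaged 24.7 FPKM. Ppox, the step between Cpox and Fech, averaged 35.2 FPKM. Uros and Ppox were thus the steps with the lowest mean FPKM of the 8 enzyme genes described here, Alas1 included.

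**Figure D1:**
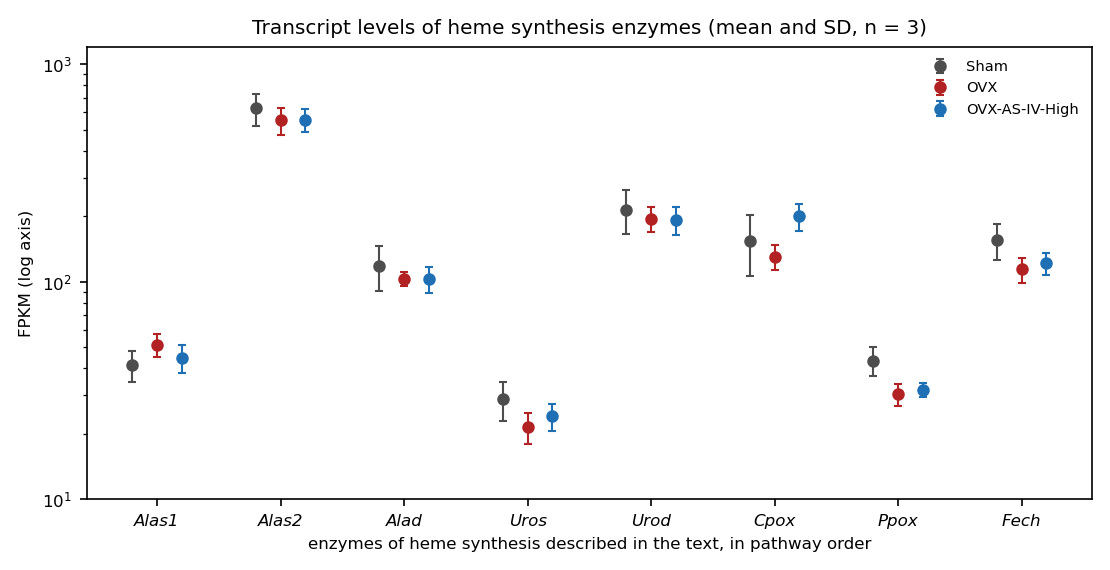
Mean FPKM with SD (n = 3 libraries per group) of 8 enzymes of heme synthesis on a log axis, in pathway order, with Alas1 and Alas2 as alternative first steps. Alas2 lies highest at a mean of 577 FPKM and Uros lowest at 24.7 FPKM.

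Promoter sequences from RefSeq (GRCr8) were available for 7 of the 9 members, all but Cpox and Slc25a37, and were searched in the 250 bases before the annotated start on both strands. The letters AGATAA, bound by GATA factors, stood in the Alas2 promoter from base -136 to -131 and, on the opposite strand, in the Fech promoter from -135 to -130, against 10.3% of 33469 promoters searched. Other forms of the GATA site were not searched, so a promoter without AGATAA is not thereby without a site. The letters CCNCNCCC, of the kind bound by KLF1, stood in Hba-a1 and Hba-a2 from base -152, in Hbb from base -98 and also in Alad, Urod and Fech, against 42.8% of promoters. TATAAA stood at base -28 in Hba-a1 and Hba-a2, against 12.9% of promoters, and the NFE2 motif stood in 0 of the 7, against 0.326%. No match of a motif overlapped one of another motif. The 3 globins and Alas2 are shown because the alpha genes stand apart from Hbb in the results and Alas2 is the gene against which the others are set. Capitals mark the matches. The promoters lie on GRCr8 at chr10:15842581-15842830 (minus strand) for Hba-a1, chr10:15829139-15829388 (minus) for Hba-a2, chr1:167663722-167663971 (minus) for Hbb and chrX:22895200-22895449 (plus) for Alas2. Hba-a1 and Hba-a2 were identical at 241 of 250 positions, and at 95 of the last 100.
Hba-a1: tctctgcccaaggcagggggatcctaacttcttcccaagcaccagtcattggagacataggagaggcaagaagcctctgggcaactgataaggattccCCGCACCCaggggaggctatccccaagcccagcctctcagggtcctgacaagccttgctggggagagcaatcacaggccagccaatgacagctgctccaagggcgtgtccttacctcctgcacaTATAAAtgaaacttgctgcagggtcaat
Hba-a2: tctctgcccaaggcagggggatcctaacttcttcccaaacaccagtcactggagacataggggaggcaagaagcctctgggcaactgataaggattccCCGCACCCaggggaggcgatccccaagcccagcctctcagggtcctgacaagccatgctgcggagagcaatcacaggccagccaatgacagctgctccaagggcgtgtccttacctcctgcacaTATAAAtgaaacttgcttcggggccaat
Hbb: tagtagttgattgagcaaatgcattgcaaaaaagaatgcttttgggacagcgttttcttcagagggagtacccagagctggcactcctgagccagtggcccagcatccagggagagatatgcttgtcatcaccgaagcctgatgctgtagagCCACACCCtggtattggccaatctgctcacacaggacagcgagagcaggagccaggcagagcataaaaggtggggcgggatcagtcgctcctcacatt
Alas2: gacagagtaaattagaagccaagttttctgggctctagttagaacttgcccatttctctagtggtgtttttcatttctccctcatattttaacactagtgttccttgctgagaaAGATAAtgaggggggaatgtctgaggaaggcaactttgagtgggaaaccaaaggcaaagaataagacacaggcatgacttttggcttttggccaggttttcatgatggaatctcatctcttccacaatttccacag

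Across the 9 libraries, Hbb and Cpox varied most among the members. The coefficient of variation of CPM was 30.9% for Hbb and 27.5% for Cpox, and between 14.6% (Alas2) and 21.0% (Slc25a37) for the others, beside a median of 18.6% over all genes tested. Sham 3 was the highest library for 5 members, and Sham 1 the lowest for 4. In Alad and Urod both extremes were Sham libraries. AS-IV 1 (treated replicate 1) was the highest library for Hbb and Cpox. OVX 2 was the lowest for Hba-a1, Hba-a2 and Alas2, and OVX 3 for Fech and Slc25a37.

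**Figure D2:**
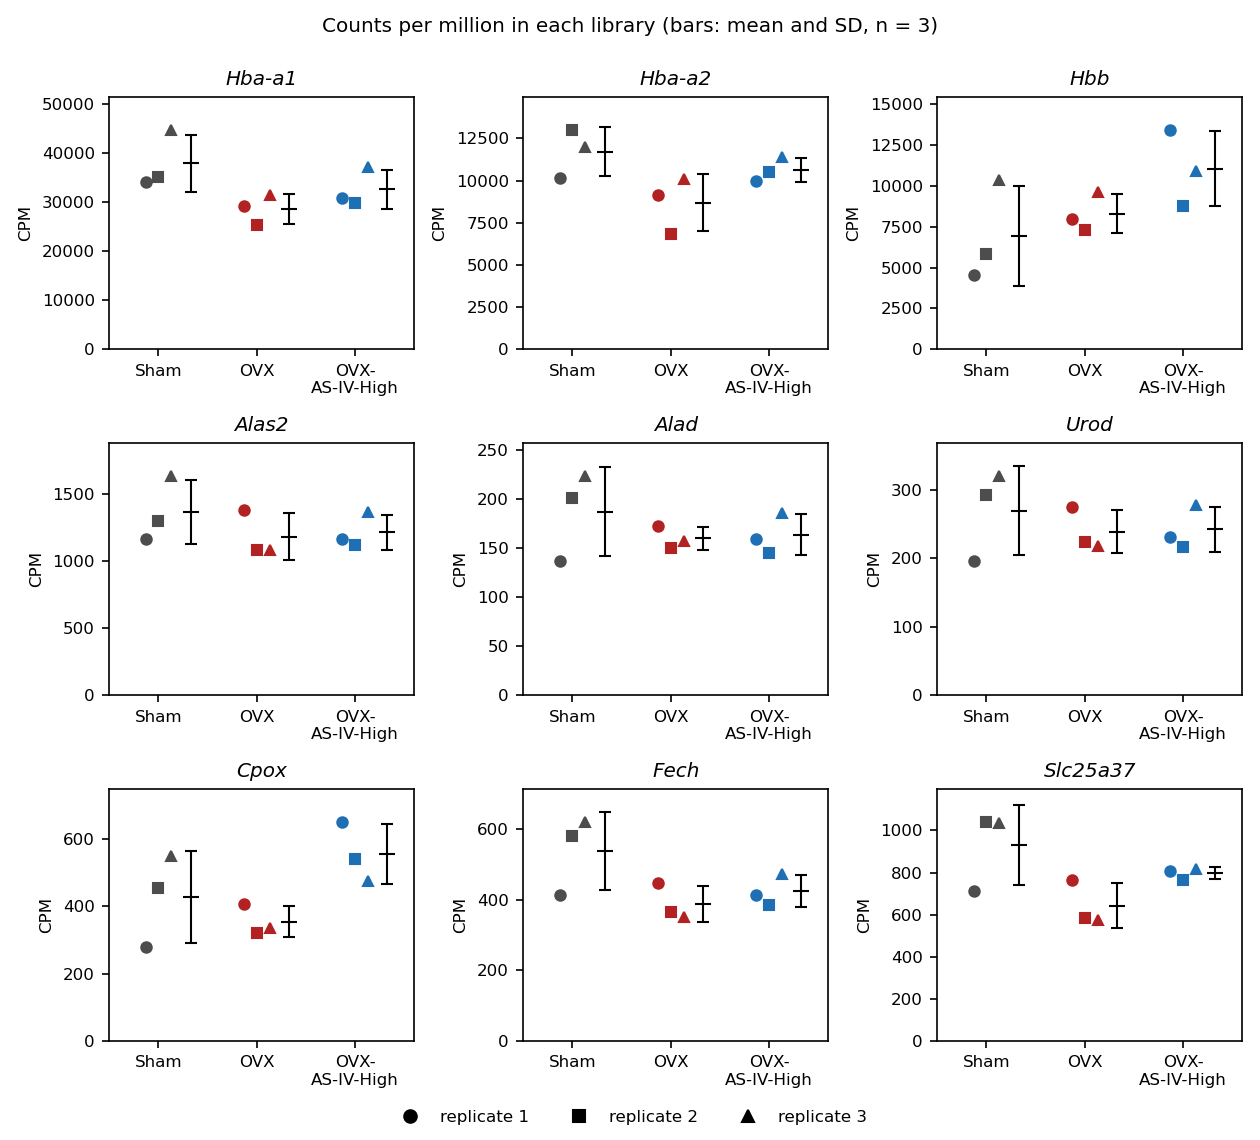
CPM of each member in each library, by group, with a different symbol for each replicate number and the mean and SD (n = 3) beside the points; each vertical axis starts at 0. Sham 3 is the highest point in 5 panels and Sham 1 the lowest in 4.

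Ovariectomized and sham-operated rats were compared first, to ask how the hemoglobin genes stood after loss of the ovaries. The alpha globins were lower in OVX. Hba-a1, the main alpha globin message, stood at 34196, 35069.7 and 44702 CPM in Sham 1, 2 and 3, and at 29164, 25394 and 31495 CPM in OVX 1, 2 and 3. All 3 OVX libraries were below all 3 Sham libraries, with Sham 3 far above the others. Hba-a2 read 10142, 12979.6 and 11997 CPM in Sham and 9167, 6806 and 10099 CPM in OVX, again without overlap, although OVX 3 and Sham 1 were nearly equal. Groups of libraries that did not overlap, with OVX lower, occurred in 10.6% of all genes, beside 2 of the 9 members. The log2FC was -0.41 for Hba-a1 (SE 0.161, 95% interval -0.77 to -0.04, edgeR adjusted p = 0.262, 1.32-fold lower) and -0.43 for Hba-a2 (SE 0.167, -0.80 to -0.05, edgeR adjusted p = 0.254, 1.35-fold lower).

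Slc25a37, which carries iron to the site of heme assembly, read 714, 1041 and 1037 CPM in Sham and 765, 583 and 575 CPM in OVX. Sham 2 and 3 were high, Sham 1 lay below OVX 1, and OVX 2 and 3 were the lowest libraries of all. Fech, the last enzyme, read 413, 579 and 619.8 CPM in Sham and 446, 364 and 351 CPM in OVX, with the same overlap of Sham 1 and OVX 1. The log2FC was -0.54 for Slc25a37 (SE 0.168, -0.91 to -0.16, edgeR adjusted p = 0.188, 1.45-fold lower) and -0.47 for Fech (SE 0.167, -0.85 to -0.10, edgeR adjusted p = 0.220, 1.39-fold lower). Hbb was the 1 member with a positive log2FC, 0.26 (SE 0.288, edgeR adjusted p = 0.652). Over fits without 1 library that log2FC ran from 0.03 to 0.68, with an unadjusted edgeR p under 0.05 in 1 of 9. Hbb read 4564, 5828 and 10371 CPM in Sham and 7990.0, 7308 and 9616 CPM in OVX, so that Sham 1 and 2 lay below every OVX library and Sham 3 above. Alas2, Alad, Urod and Cpox had log2FC values from -0.27 to -0.17.

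By edgeR, 0 of the 9 members passed the thresholds in OVX against Sham, beside 3.11% of all genes, and 4 had an unadjusted p under 0.05 and were lower (Hba-a1, Hba-a2, Fech and Slc25a37), beside 8.28% of all genes. DESeq2 also gave 0 past the thresholds and 4 lower at that p, and limma on log2(FPKM + 1) gave 0 and 2. Of all genes, 682 of 22999 passed the thresholds by DESeq2 and 78 of 16937 by limma. In DESeq2 the adjusted p of Slc25a37 was 0.0483, with 790 genes of the table under 0.05, and in edgeR 0 genes had an adjusted p under 0.05. The median log2FC of the members was -0.27, with 8 of 9 negative, and that of all genes tested -0.01. The count of 4 moved with single libraries: it was 7 without Sham 1, 2 without Sham 2 or Sham 3, and 1 without OVX 2.

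Treated and untreated ovariectomized rats were compared to ask whether AS-IV altered these genes. Cpox, which makes protoporphyrinogen from coproporphyrinogen, was the member with the largest difference. It read 407, 320.5 and 334 CPM in OVX 1, 2 and 3 and 651, 541 and 476 CPM in AS-IV 1, 2 and 3, beside 279.9, 453 and 549 CPM in Sham. Every treated library lay above every OVX library, AS-IV 1 the farthest, and Sham 3 lay within the treated range. The log2FC was 0.65 (SE 0.230, 0.13 to 1.17, edgeR adjusted p = 0.678, 1.57-fold higher). With the replicate number as a block over all 9 libraries it was also 0.65, although the study describes no pairing of rats. For Urod, the step before Cpox, the log2FC was 0.02.

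Slc25a37 read 806, 766 and 818 CPM in the treated group, above all 3 OVX libraries and inside the Sham range. Its log2FC was 0.31 (SE 0.167, edgeR adjusted p = 0.846). Higher CPM without overlap was thus seen in 2 of 9 members, beside 6.38% of all genes. For Slc25a37, AS-IV 2 and OVX 1 were nearly equal, and in FPKM AS-IV 2 was the lower (159.5 against 162.2), so that the groups overlapped. Hbb read 13414, 8803 and 10945 CPM in the treated libraries, AS-IV 1 being the highest of all 9, and overlapped with OVX (log2FC 0.41, edgeR adjusted p = 0.917). Hba-a2 had a log2FC of 0.29, Hba-a1 0.19 and Fech 0.13, while Alas2 and Alad were at 0.04 and 0.03.

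All 9 members had a positive log2FC in treated against OVX rats, with a median of 0.19 beside -0.02 over all genes. That sign rested on single libraries for the smallest values. Without AS-IV 3 the log2FC was -0.05 for Alas2, -0.07 for Alad and -0.09 for Urod, without OVX 2 it was -0.022, -0.015 and -0.025, and without OVX 3 it was -0.020 for Alas2 and -0.044 for Urod. In limma on FPKM, Alad was at -0.011 and Urod at -0.017. By edgeR, 0 members passed the thresholds, beside 0.83% of all genes, and 1 (Cpox) had an unadjusted p under 0.05 and was higher, beside 4.42%. DESeq2 and limma on log2(FPKM + 1) each gave 0 and 1, where 195 of 22999 and 14 of 16937 genes passed the thresholds. The count of 1 became 2 without Sham 1, Sham 3 or OVX 1, and 0 without OVX 2, OVX 3 or AS-IV 1.

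Against Sham, the treated rats differed most in Hbb. Its 3 treated values, 13414, 8803 and 10945 CPM, overlapped with Sham only through Sham 3 at 10371 CPM. The log2FC was 0.68 (SE 0.289, 0.02 to 1.33, edgeR adjusted p = 0.271, 1.60-fold higher). Fech (-0.34, edgeR adjusted p = 0.323) and Cpox (0.38, edgeR adjusted p = 0.421) came next. By edgeR, 0 members passed the thresholds, beside 3.15% of all genes, and 1 (Hbb) had an unadjusted p under 0.05 and was higher, beside 9.17%. DESeq2 gave 0 and 1, limma on log2(FPKM + 1) gave 0 and 0. Of all genes, 635 of 22999 passed the thresholds by DESeq2 and 84 of 16937 by limma. The median was -0.17, with 7 of 9 negative, and -0.01 over all genes. Without Sham 3, Hbb passed the thresholds and 2 members were higher at that p. Without Sham 1, Sham 2, any 1 of the OVX libraries, AS-IV 1 or AS-IV 3 the count of higher members was 0, and without Sham 1 a count of 4 lower members replaced the 0.

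With both ovariectomized groups pooled against the same Sham libraries, Fech had a log2FC of -0.41 (SE 0.142, edgeR adjusted p = 0.160, 1.33-fold lower), Slc25a37 -0.38 (edgeR adjusted p = 0.181) and Hba-a1 -0.31 (edgeR adjusted p = 0.236). Hbb stood at 0.47 (edgeR adjusted p = 0.315). By edgeR, 0 members passed the thresholds, beside 3.5% of all genes, and 3 had an unadjusted p under 0.05 and were lower, beside 11.1%. DESeq2 gave 0 past the thresholds, 3 lower and 1 higher, and limma on log2(FPKM + 1) gave 0 and 2 lower. Of all genes, 723 of 22999 passed the thresholds by DESeq2 and 78 of 16937 by limma. The median was -0.21, with 7 of 9 negative, and -0.01 over all genes. The count of 3 was 6 without Sham 1, 0 without Sham 2 or Sham 3 and 1 without OVX 2. All 4 comparisons share libraries, so their values are not independent of each other.

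**Figure D3:**
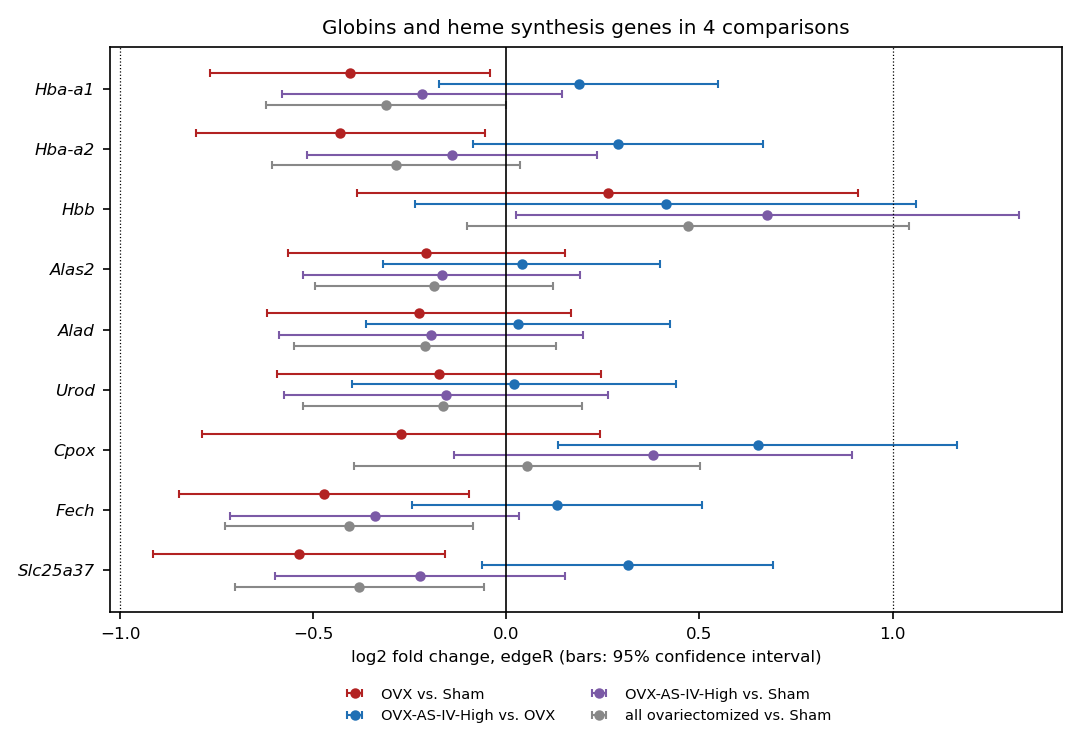
The log2FC of each member by edgeR with its 95% confidence interval in the 4 comparisons; the solid line marks 0 and the dotted lines mark a log2FC of -1 and 1. Slc25a37 lies lowest in OVX against Sham at -0.54 and Hbb highest in treated rats against Sham at 0.68.

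The balance of the chains was followed within each library, as the summed counts of Hba-a1 and Hba-a2 over those of Hbb. It uses the same counts as the tests of the single genes and is not independent of them. The ratio was 9.72, 8.24 and 5.47 in Sham, 4.80, 4.41 and 4.33 in OVX, with 3.05, 4.59 and 4.44 in the treated group. All 6 ovariectomized libraries lay below all 3 Sham libraries, Sham 3 being nearest to them, and the OVX and treated libraries overlapped. The mean was 7.81 ± 2.16 in Sham, 4.51 ± 0.252 in OVX and 4.02 ± 0.849 in the treated group (SD, n = 3). The difference of all ovariectomized libraries from Sham was -3.54, with a two-sided exact permutation p of 0.0238, the smallest that 6 against 3 allows, and a Benjamini-Hochberg value of 0.190 over the 8 tests of ratio and share. OVX against Sham (-3.30) and treated rats against Sham (-3.79) each had an exact p of 0.1, adjusted 0.267, and treated against OVX rats (-0.486) an exact p of 0.6, adjusted 0.686. Without any 1 Sham library the pooled difference ran from -4.71 to -2.59, at the smallest exact p left, 0.0714: it was -2.59 without Sham 1, -3.32 without Sham 2 and -4.71 without Sham 3.

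The ratio was taken again over all 3 alpha and all 4 beta genes of the adult type, an alternative chosen after seeing the data because copies share reads. It was 6.01, 4.93 and 3.53 in Sham, 3.14, 3.19 and 3.04 in OVX, with 2.51, 2.93 and 3.16 in the treated group. The ovariectomized libraries again all lay below Sham (difference -1.83, two-sided exact permutation p = 0.0238). The part of the beta counts assigned to Hbb was 61.1%, 58.9% and 63.7% in Sham, 64.4%, 71.5% and 69.9% in OVX, with 81.8%, 63.3% and 70.5% in the treated group. OVX was above Sham without overlap (two-sided exact permutation p = 0.1), and the treated group overlapped with both. In OVX against Sham the other beta genes had log2FC values of -0.14 (Hbb-b1), -0.24 (Hbb-b2) and -0.25 (Hbb-bs), beside 0.26 for Hbb. All 4 beta genes together took 0.759%, 0.967% and 1.62% of counts in Sham and 1.26%, 1.05% and 1.38% in OVX, with overlap (difference of means 0.114 percentage points, two-sided exact permutation p = 0.7). In treated against OVX rats that sum was higher by 0.283 without overlap (exact p = 0.1, the smallest that 3 against 3 allows).

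The 3 globins together took 4.97%, 5.27% and 6.66% of all counts in Sham, 4.69%, 4.07% and 5.13% in OVX, with 5.29%, 4.88% and 5.96% in the treated group. The groups overlapped, Sham 3 being highest and OVX 2 lowest. The 95% Wilson interval, which covers counting error only, was 4.96% to 4.98% in Sham 1, far narrower than the spread between libraries. The mean was 1.01 percentage points lower in OVX than in Sham (a difference of -1.01, two-sided exact permutation p = 0.2, adjusted 0.32) and higher in treated than in OVX rats by 0.749 (exact p = 0.2, adjusted 0.32). Within pairs of like-numbered libraries, a test chosen after seeing the data, the share was higher in the treated library in 3 of 3 (exact permutation p = 0.25, the smallest that 3 pairs allow), as was the CPM of Hba-a1, Hba-a2 and Hbb. The study describes no pairing of these libraries. Treated rats against Sham gave -0.256 (exact p = 0.7), which turned to 0.258 without Sham 3, and all ovariectomized libraries against Sham gave -0.631 (exact p = 0.262).

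**Figure D4:**
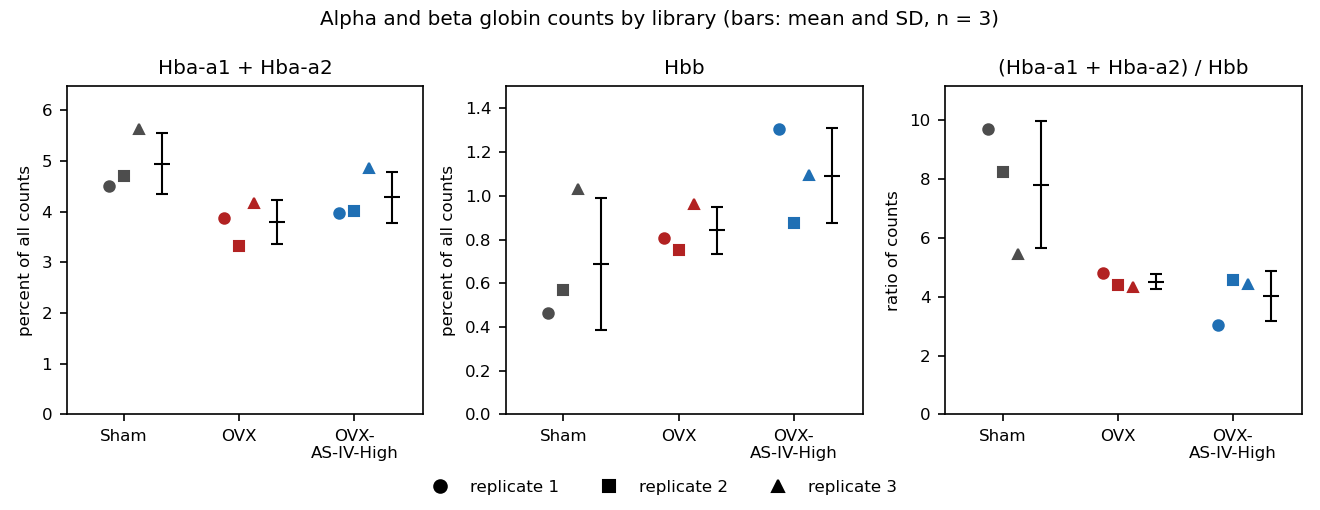
From left to right, Hba-a1 and Hba-a2 as percent of all counts, Hbb as percent of all counts and the ratio of their counts in each library, by group, with the mean and SD (n = 3) beside the points. The ratio of alpha to beta counts lies between 5.47 and 9.72 in Sham and between 3.05 and 4.80 in the 6 ovariectomized libraries.

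Alas2 itself read 1164, 1293 and 1631 CPM in Sham, 1379, 1079 and 1083 CPM in OVX, with 1164, 1114 and 1361 CPM in the treated group. Sham 3 was highest, the groups overlapped, and most other members followed Alas2 from library to library. Over the 9 libraries, the correlation of log2 CPM with Alas2 was r = 0.887 for Urod (rho = 0.7), 0.881 for Fech (rho = 0.917) and 0.864 for Alad (rho = 0.717). Exact permutation p-values for r were 0.00184, 0.00135 and 0.00275, and each gave 0.00733 after Benjamini-Hochberg adjustment over the 8 relations. For rho the exact p was 0.0433 for Urod, 0.00131 for Fech and 0.0369 for Alad, and after adjustment only Fech, at 0.0105, was under 0.05, with 0.115 for the others. Without the libraries farthest from the median of Alas2, Sham 3 and OVX 1, r was 0.809, 0.868 and 0.782.

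Hba-a1 (r = 0.772, rho = 0.6) and Slc25a37 (r = 0.770, rho = 0.667) also varied with Alas2, with an exact permutation p of 0.0144 and 0.0152 for r, adjusted 0.0242 each, and of 0.0968 and 0.0589 for rho, adjusted 0.155 and 0.118. Hba-a2 (r = 0.535, rho = 0.5, exact p 0.138 and 0.178, adjusted 0.184 and 0.237) and Cpox (r = 0.397, rho = 0.35, exact p 0.293 and 0.359, adjusted 0.334 and 0.410) had lower values. Hbb had the lowest (r = 0.181, rho = 0.15, exact permutation p 0.641 and 0.708, the same after adjustment). Without Sham 3 and OVX 1, r was 0.821 for Hba-a1, 0.776 for Slc25a37, 0.692 for Hba-a2, 0.323 for Cpox and 0.0172 for Hbb. Taken as deviations from the group means, r was 0.612 for Hbb and 0.609 for Cpox, 0.894 for Fech and 0.743 for Hba-a1, and Hba-a2 had the lowest value, 0.406. As a description over the 9 libraries, Hbb and Cpox, the most variable members, had r = 0.716 with each other, Alad and Urod 0.973, Fech and Slc25a37 0.936, and Hba-a1 and Hba-a2 0.813.

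**Figure D5:**
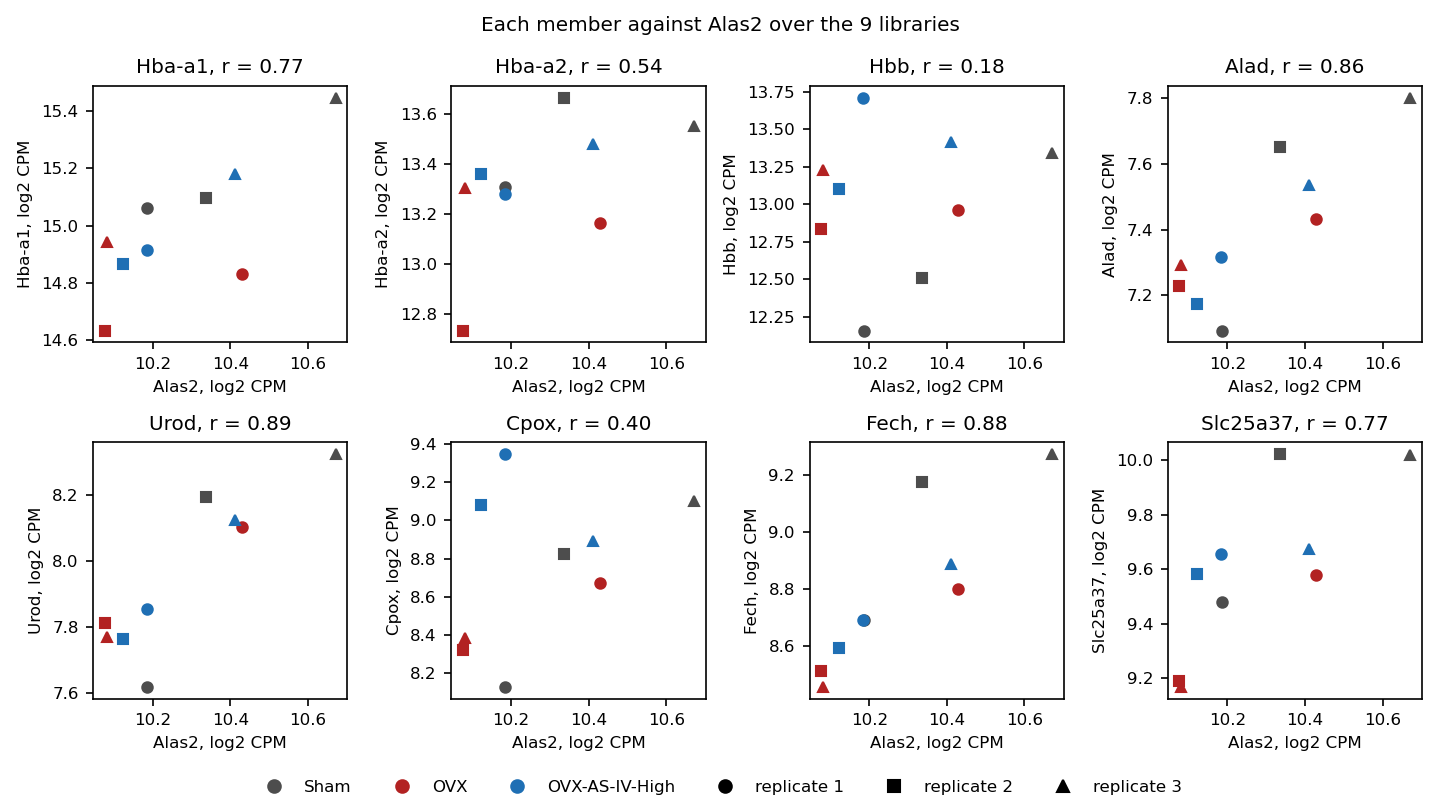
The log2 CPM of each other member against that of Alas2 in the 9 libraries, with groups in colour, replicate numbers as symbols and Pearson's r above each panel. Urod, Fech and Alad lie along a line, whereas in the Hbb panel (r = 0.18) Sham 1 and 2 lie low and AS-IV 1 high at like levels of Alas2.

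Among all genes tested, those with the highest r with Alas2 over the 9 libraries were Pold3 (0.961), Sec23ip (0.956), Fn3krp (0.946), Gde1 (0.938) and Myo5c (0.925), and further down Plekho1, Tm4sf4, Rnf5 and Hsd3b7 (0.914). With Hbb they were Cenpw (0.954), a centromere protein, Cdkn2c (0.953), an inhibitor of cell cycle kinases, Larp4b (0.945), Pde12 (0.940) and Tusc3 (0.940), followed by Arid2, Dennd10, Zfp26, Pbrm1 and Tubgcp4 down to 0.924. The median r with Alas2 was 0.789 for 22 genes of the red cell membrane and its enzymes, 0.630 for 12 erythroid regulators and 0.597 for the other 16 genes of the heme pathway, beside -0.00104 for all genes tested. With Hbb the medians were 0.346, 0.108 and 0.130, beside 0.0147.

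Beyond the members, the heme pathway had lower values in OVX than in Sham. Of 16 further genes of the pathway and its transporters, 7 had an unadjusted p under 0.05 by edgeR and were lower, beside 8.28% of all genes, 0 were higher, and 0 passed the thresholds; the median log2FC was -0.20, beside -0.01 for all genes. The 7 were Ppox, Uros, the porphyrin transporter Abcb6, the mitochondrial carriers Slc25a38 and Slc25a39, Abcb10 and Tspo2. Ppox, the oxidase before Fech, read 93.8, 124 and 93.0 CPM in Sham and 80.5, 66.0 and 66.3 CPM in OVX, without overlap (log2FC -0.54, SE 0.136, edgeR adjusted p = 0.151). Abcb6 read 66.7, 101 and 84.8 CPM in Sham and 63.8, 48.0 and 48.0 CPM in OVX, without overlap but with OVX 1 near Sham 1 (log2FC -0.66, SE 0.167, edgeR adjusted p = 0.152). The most abundant of the list, Ahsp, the chaperone of alpha globin, had a log2FC of -0.09 and Tmem14c, a porphyrin transporter, -0.17. Lower genes at that p numbered 7 by DESeq2 and 6 by limma on log2(FPKM + 1). The count of 7 was 4 without Sham 2, OVX 2 or OVX 3. In treated against OVX rats 0 of the 16 had such a p, and 1 (Slc25a39, higher) with the replicate block, with 12 of 16 positive and a median of 0.10.

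Among 12 erythroid regulators, 3 were lower in OVX at an unadjusted p under 0.05 by edgeR, beside 8.28% of all genes, and 0 passed the thresholds (median -0.31). Tal1, a factor required for blood formation, read 381, 536 and 537 CPM in Sham and 373, 251 and 296 CPM in OVX, with OVX 1 just below Sham 1 (log2FC -0.66, SE 0.171, edgeR adjusted p = 0.153). Gfi1b (-0.59, SE 0.188, edgeR adjusted p = 0.198) and Epor, the erythropoietin receptor, were the others. Klf1 had a log2FC of -0.35 and the transferrin receptor Tfrc -0.16. Lower genes at that p numbered 5 by DESeq2 and 3 by limma on log2(FPKM + 1). The count of 3 was 7 without Sham 1, 1 without Sham 2 and 6 without OVX 1. In treated against OVX rats, 0 had such a p, 10 of 12 were positive and the median was 0.12.

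Of 22 genes of the red cell membrane and its enzymes, 4 were lower in OVX at an unadjusted p under 0.05 by edgeR (Gypc, Mkrn1, Ank1 and Tmod1), beside 8.28% of all genes, and 0 passed the thresholds; 20 of 22 were negative (median -0.24). Gypc (glycophorin C) read 174, 185 and 192 CPM in Sham and 150.0, 112 and 112 CPM in OVX, without overlap (log2FC -0.56, SE 0.123, edgeR adjusted p = 0.140). The carbonic anhydrases Car2 and Car1, the most abundant of the list, had log2FC values of -0.35 and -0.04. DESeq2 gave 5 lower genes at that p and limma on log2(FPKM + 1) gave 4. The count of 4 was 15 without Sham 1 and 1 without OVX 2 or OVX 3, fits to which the 8.28% does not belong. In treated against OVX rats all 22 were positive, with a median of 0.16 and 0 with such a p. Of 8 genes of late erythroid clearance, 2 (Ube2o and Ubac1) were lower in OVX at that p (median -0.22), and of 9 other globins tested 2 (Cygb and Hba-a3) were lower (median -0.25), each beside the same 8.28%. The first count was 6 without Sham 1, 0 without Sham 2, Sham 3 or OVX 2 and 1 without OVX 3. The second was 0 without OVX 2 or OVX 3 and 1 without OVX 1 or any 1 of the Sham libraries. The 9 other globins included Cygb (mean 6.50 FPKM), Mb, also of the muscle list, and Ngb (5 to 19 counts), which are not hemoglobin chains. The median of that list is therefore not one of red cell genes alone.

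Heme breakdown and export were set apart from synthesis. Hmox1, heme oxygenase 1, which opens the heme ring, read 235, 210.2 and 297 CPM in Sham, 146, 132 and 162 CPM in OVX, with 139, 134 and 138 CPM in the treated group. All 6 ovariectomized libraries were below all 3 Sham libraries. The log2FC was -0.75 in OVX against Sham (SE 0.134, edgeR adjusted p = 0.118), -0.85 in treated rats against Sham (edgeR adjusted p = 0.0738) and -0.80 for all ovariectomized libraries (SE 0.112, edgeR adjusted p = 0.0479, 1.74-fold lower), in which 17 genes of the table had an adjusted p under 0.05. In that comparison DESeq2 gave Hmox1 an adjusted p of 3.84e-07, with 1349 genes under 0.05, and limma on log2(FPKM + 1) an adjusted p of 0.0521, with 8 genes. Over the fits without 1 library the edgeR adjusted p ran from 0.0307 to 0.275 and was under 0.05 in 2 of 9, while the log2FC stayed between -0.90 and -0.65. Of the 12 genes of the list, 1 (Hmox1) had an unadjusted p under 0.05 in OVX against Sham and was lower, beside 8.28% of all genes, and the median was 0.01. In treated against OVX rats, Cd163, a scavenger receptor for hemoglobin, was the 1 gene with such a p, and was lower, beside 2.03% of all genes; with the replicate block it lost that p. Hpx, the heme carrier of plasma, passed the thresholds in treated rats against Sham (log2FC -1.22, SE 0.462, edgeR adjusted p = 0.224), as did 3.15% of all genes. It had few counts, 29, 30 and 34 in Sham and 9, 8 and 24 in the treated group, and did not pass without Sham 2, Sham 3, AS-IV 1 or AS-IV 2.

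Genes of other cell types differed between the same groups, and their part in the results was not tested. B lineage genes were higher in OVX than in Sham in 9 of 9 at an unadjusted p under 0.05 by edgeR, beside 8.16% of all genes (median 0.73), with Igll1 past the thresholds. Their summed level was 405, 393 and 554 FPKM in Sham, 751, 791 and 751 FPKM in OVX, with 468, 561 and 739 FPKM in the treated group, led by Cd79a at 313 FPKM. OVX lay above Sham without overlap, and in treated against OVX rats 4 of 9 were lower at that p, beside 2.03% of all genes. Adipocyte genes were higher in OVX in 6 of 8, beside 8.16%, with Adipoq, Plin1, Cidec and Lep past the thresholds (median 0.85). Their summed level was 540.0, 568 and 763 FPKM in Sham, 744, 997 and 974 FPKM in OVX, with 622, 941 and 925 FPKM in the treated group, led by Fabp4 at 403 FPKM. Sham 3 lay within the OVX range.

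Skeletal muscle genes, 11 of 11 negative in OVX against Sham with 0 at an unadjusted p under 0.05 by edgeR (median -1.32), set Sham 1 and 2 apart. Their summed level was 5880, 4247 and 951 FPKM in Sham, 2164, 1180 and 979 FPKM in OVX, with 3145, 1272 and 352 FPKM in the treated group, led by Acta1 at 667 FPKM. Sham 1 was thus the library highest in muscle genes and the lowest in Hbb, Alad, Urod and Cpox. AS-IV 1, next in muscle genes after Sham 1 and 2 at 3145 FPKM, was the highest in Hbb and Cpox. Leaving out Sham 1 and 2, a choice made after seeing the data, kept only 1 Sham library, which was taken to vary like the other groups. The library kept, Sham 3, was the highest for 5 members. With 1 Sham library the spread of Sham cannot be measured, so only a log2FC is given. In that fit Hbb had a log2FC of -0.31 in OVX against Sham.

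Macrophages of erythroid islands, which nurse red cell precursors, had 0 of 10 genes at an unadjusted p under 0.05 in OVX against Sham by edgeR (median 0.06). Their summed level was 344, 418 and 607 FPKM in Sham, 436, 492 and 507 FPKM in OVX, with 363, 412 and 436 FPKM in the treated group, led by C1qa at 129.7 FPKM. In the other lists, genes with such a p in OVX against Sham numbered 3 of 9 higher for T and NK cells (median 0.71), 2 of 9 higher for neutrophils (0.17) and 1 of 10 higher for osteoblasts and osteocytes (0.38), beside 8.16% of all genes, and 1 of 7 lower for chondrocytes (-0.67) and 1 of 8 lower for endothelium (-0.11), beside 8.28%. Past the thresholds were Cd8a of T cells (log2FC 1.11, edgeR adjusted p = 0.302) and Bglap, which encodes osteocalcin (1.21, edgeR adjusted p = 0.199). They numbered 0 of 10 for osteoclasts (0.38), 0 of 7 for megakaryocytes and platelets (-0.30) and 0 of 11 for proliferation (0.29). In treated rats against Sham, such genes numbered 5 of 8 higher for adipocytes, beside 9.17% of all genes. Adipoq, Plin1, Cidec and Lep were past the thresholds, Cidec not with the replicate block (log2FC 0.95). Beside the same 9.17%, higher genes numbered 4 of 9 for neutrophils, 3 of 9 for the B lineage and 1 of 9 for T and NK cells. They numbered 1 of 10 for osteoclasts and 1 of 10 for osteoblasts and osteocytes, where Phex passed the thresholds. Lower were 5 of 8 for endothelium, 1 of 7 for chondrocytes and 1 of 10 for macrophages, beside 8.48% of all genes. In treated against OVX rats, the B lineage apart, 1 of 8 was lower for endothelium and 1 of 10 for macrophages (0 with the replicate block), beside 2.03%. Of the genes in the marker lists of cell types, 0 were at 3 counts or fewer in all libraries.

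The members were last set against the red cell list in the same library, an alternative chosen after seeing the data, as log2 CPM minus the mean of the 22 red cell genes. That mean was 7.75, 8.32 and 8.53 in Sham, 8.21, 7.83 and 7.93 in OVX, with 8.03, 8.04 and 8.34 in the treated group, with Sham 1 lowest and Sham 3 highest. Relative to it, Fech was lower by a log2 difference of -0.25 and Slc25a37 by -0.32 in OVX than in Sham, each without overlap (two-sided exact permutation p = 0.1). Hba-a1 (-0.19) and Hba-a2 (-0.23) overlapped, and Alas2 was at 0.01. Hbb was at 0.55 in OVX against Sham (exact p = 0.2) and at 0.81 in treated rats against Sham, there without overlap (exact p = 0.1). Cpox was higher by 0.50 and Urod lower by a log2 difference of -0.13 in treated than in OVX rats, each without overlap (exact p = 0.1), with Alas2 at -0.10 and Alad at -0.12 (exact p = 0.2 for each, with overlap). For all ovariectomized libraries against Sham, Fech was at -0.25 without overlap (exact p = 0.0238). Hbb was at 0.68 there (exact p = 0.0476) and Slc25a37 at -0.23 (exact p = 0.0714). Every member was tested in every comparison on this scale, and the exact p-values are unadjusted. The values named were picked from among these tests. No share of all genes is given on this scale, so groups without overlap are not read against a background. The red cell list was itself chosen with earlier results of these data known.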

How the data were processed

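Poly(A) RNA of bone was sequenced in 9 libraries, 3 per group. The authors trimmed reads, aligned them (Tophat, Bowtie2) and estimated gene abundance with eXpress, on mRatBN7.2 per the submitters' processing notes. The deposited counts are whole numbers that were not normalized, and how the estimates became whole is not stated. The authors also deposited FPKM for the same genes.

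Counts were tested with edgeR 4.0.16 (R 4.3.3; quasi-likelihood test, TMM, filterByExpr with a minimum count of 10, all 9 libraries in one fit, common coefficient of variation 0.256), a step also tested on simulated data. DESeq2 1.42.0 and limma 3.58.1 on log2 FPKM served as alternatives, beside other scalings, filters, thresholds and fits without single libraries. Log2 CPM used a prior count of 2. Shares, ratios and correlations were computed in Python 3.11.15 (numpy 2.4.6, scipy 1.17.1, pandas 2.3.3) with two-sided exact permutation tests, and plots with matplotlib 3.10.9. Members and lists were chosen with earlier results of these data known. Genes of the lists past the thresholds in OVX against Sham were named, and from other lists genes were drawn from the 2 with the smallest p and the 2 with the highest mean FPKM; other genes named beside counts were chosen after their values were seen.

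Replicate numbers were checked as a pairing through deviations from group means: the correlation between like-numbered libraries of OVX and OVX-AS-IV-High was 0.310, 0.158 and 0.130. The study assigned rats at random and describes no pairing, and these correlations do not establish one. The replicate block was fitted to all 9 libraries as an alternative.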

Additional observations from a re-analysis of the deposited data

How the results depend on the processing

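Over the 36 log2FC values of members in the 4 comparisons, 711 alternative values were computed. Of these, 605 kept the sign and the side of an unadjusted p of 0.05, 50 lost that p, 35 gained it and 21 turned sign; the cause was not tested.

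With single libraries left out, the log2FC in OVX-AS-IV-High against OVX ran from -0.052 to 0.17 for Alas2, -0.073 to 0.11 for Alad and -0.094 to 0.13 for Urod, and that of Cpox in the pooled comparison from -0.18 to 0.28. In limma on FPKM, with a pseudocount of 1 or 0.1 or without a filter, Alad was at -0.011 and Urod at -0.017. Fits without Sham 1 and 2, or without Sham 1 and 3, chosen after seeing the data, kept 1 Sham library, which was taken to vary like the other groups. Without Sham 1 and 2, Hbb was at -0.31 in OVX against Sham and at -0.11 in the pooled comparison, and Cpox at -0.30 there; without Sham 1 and 3, Cpox was at -0.033. The globin share of treated rats against Sham ran from -0.588 to 0.258, the alpha to beta ratio of treated against OVX rats from -0.767 to 0.00239 and of all ovariectomized rats against Sham from -4.71 to -2.59.

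Members with an unadjusted p under 0.05 and lower in OVX against Sham ran from 1 to 7 without single libraries, and were 2 in each limma setting and in a fit of those groups alone. Higher members in OVX-AS-IV-High against OVX ran from 0 to 2, and were 2 in a fit of those groups alone. Against Sham, the treated rats had 0 to 2 higher and 0 to 4 lower members. Higher members were 0 in limma on log2(FPKM + 1) with or without the filter and in a fit of the groups alone. The pooled comparison had 0 to 6 lower members. Members past the thresholds in treated rats against Sham ran from 0 to 1. With a log2FC over 0.58, 1 member passed in OVX-AS-IV-High against OVX and 1 in OVX-AS-IV-High against Sham.

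Genes past the thresholds, in the order OVX against Sham, OVX-AS-IV-High against OVX, OVX-AS-IV-High against Sham and pooled, were 525, 140, 531 and 591. They ran from 387 to 1064, 141 to 219, 409 to 940 and 406 to 1056 without single libraries. They were 1174, 369, 1167 and 1279 with a log2FC over 0.58, 78, 14, 84 and 78 by limma on log2(FPKM + 1), and 73, 13, 77 and 69 with that and no filter. Without the filter edgeR gave 791, 274 and 934 in the first, second and last, and limma on log2(FPKM + 0.1) gave 347 and 335 in the first and last.

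With the replicate block, Hbb had a log2FC of 0.52 and an unadjusted p under 0.05 in the pooled comparison; it changed the call of no other member. Abcb10 in OVX against Sham, Cd163 in OVX-AS-IV-High against OVX and Uros in the pooled comparison lost that p. Slc25a39 in OVX-AS-IV-High against OVX gained that p with a log2FC of 0.27. Cd8a in OVX against Sham (log2FC 0.86) and Cidec in OVX-AS-IV-High against Sham (0.95) no longer passed the thresholds. No share of all genes with that p is given for the block, so the list counts below are not read against a background. Genes past the thresholds were 705, 153 and 711 with the block in OVX against Sham, OVX-AS-IV-High against OVX and OVX-AS-IV-High against Sham. In OVX against Sham, genes with that p became 4 of 11 lower for skeletal muscle, 3 of 10 higher for osteoclasts and 3 of 10 higher for osteoblasts and osteocytes. They became 3 of 8 lower for endothelium, 2 higher and 1 lower of 10 for macrophages and 2 of 7 lower for chondrocytes. They became 1 of 11 higher for proliferation and 1 of 12 higher for erythroid regulators. Adipocyte genes became 7 of 8 higher, neutrophil genes 3 of 9 higher and red cell genes 5 of 22 lower. In OVX-AS-IV-High against OVX, genes with that p became 5 of 9 lower for the B lineage and 2 of 8 lower for adipocytes. They became 1 of 10 lower for osteoblasts and osteocytes, 1 of 7 higher for chondrocytes and 0 of 10 for macrophages. In treated rats against Sham they became 9 of 11 lower for skeletal muscle, 6 of 9 higher for the B lineage and 3 of 9 higher for neutrophils. They became 3 of 10 higher for osteoclasts and 2 of 10 higher for osteoblasts and osteocytes. They became 1 higher and 2 lower of 10 for macrophages and 1 of 7 lower for megakaryocytes and platelets. Genes of the table with an edgeR adjusted p under 0.05 numbered 0 without the block and 21 with it in OVX against Sham. They numbered 0 and 58 in OVX-AS-IV-High against Sham, and 17 and 566 in the pooled comparison. A pairing by number was not established for any of the groups. The correlations of like-numbered Sham libraries were 0.200, -0.161 and 0.253 with OVX and 0.314, -0.158 and 0.435 with OVX-AS-IV-High. The library most alike bore the same number in 3 and 4 of 6 libraries, beside 4 of 6 for OVX and OVX-AS-IV-High. Within pairs of those groups, a test chosen after seeing the data, the globin share differed by 0.749 (exact permutation p = 0.25) and the alpha to beta ratio by -0.486 (exact permutation p = 1). Hbe2, Hbz and Hbg1, at 0 to 7 counts, could not be compared at this depth.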

Other observations

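Erfe, the gene of erythroferrone, a hormone of red cell precursors that lowers hepcidin, was noted outside the lists and was chosen after its values were seen. It read 53.5, 44.5 and 53.8 CPM in Sham, 25.4, 18.5 and 20.6 CPM in OVX and 28.7, 20.5 and 24.2 CPM in OVX-AS-IV-High. All 6 ovariectomized libraries lay below all 3 Sham libraries, and OVX and treated libraries overlapped. In OVX against Sham it had the smallest p of all genes tested (log2FC -1.23, SE 0.160, edgeR adjusted p = 0.118, 2.35-fold lower). For all ovariectomized libraries against Sham the log2FC was -1.14 (SE 0.132, edgeR adjusted p = 0.0464), and over fits without 1 library that edgeR adjusted p ran from 0.0214 to 0.275, under 0.05 in 2 of 9. OVX-AS-IV-High against OVX gave 0.19 (edgeR adjusted p = 0.928).

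With 3 libraries per group, an exact test between groups cannot give a p below 0.1. The globin values rest on reads divided among near-identical copies. The values describe messages in whole bone, not hemoglobin, heme or red cell numbers.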
